A study of Mus musculus with 12 samples.

Results

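The genes described here are 40 mouse genes that copy DNA or make its building blocks, measured by RNA-seq in CD8+ T cells, the cytotoxic arm of the T cell pool. They were listed by symbol, from origin licensing through the replication fork to deoxynucleotide synthesis, and each symbol was matched to its mouse Ensembl identifier in the count table. All 40 were found among 55487 gene identifiers, and all 40 were among the 15897 genes that passed a filter on low counts. The 12 libraries held total RNA of CD8+ T cells prepared from C57BL/6 splenocytes, in 4 groups of 3: IL-12 with 80%TCM, IL-12, IL-2 with 80%TCM, and IL-2. The labels place the work in tumor-like conditions but do not spell out TCM, and they give no genotype beyond the strain, no age, no cytokine dose and no length of treatment. They name the IL-2 libraries as controls. They do not say whether a group's 3 libraries are separate mice or cultures, so a p-value here reflects only how far these libraries scatter, which may be technical. Levels are CPM, the counts of a gene per 1e+06 counts of its library after scaling by the trimmed mean of M-values, and a gene was called changed at an adjusted p of at most 0.05.

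A cell copies its genome once per division in ordered steps. Before S phase the origin recognition complex, with Cdc6 and Cdt1, loads the ring-shaped Mcm2 to Mcm7 helicase onto origins, and Cdc45 and the GINS complex then turn it into the active helicase. DNA polymerase alpha with primase lays primers, polymerases delta and epsilon extend them on the Pcna clamp that replication factor C loads, and Fen1 and Lig1 process and join Okazaki fragments. Ribonucleotide reductase, thymidylate synthase and thymidine kinase supply the deoxynucleotides. Many of these genes are transcribed as cells pass from G1 into S phase, through E2F transcription factors. Activated CD8+ T cells divide quickly. IL-2 is their classical growth factor, and IL-12 drives their effector functions.

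Library depth was 19500568 to 26007717 counts, except for IL-12 replicates 1 and 2, sequenced to 49638920 and 42349121 counts and so with less counting error. Replicate 3 of IL-2 80%TCM and replicate 3 of IL-2 differed from the 2 libraries they were grouped with, at a chi-square per degree of freedom over genes of 28.5 to 45.4, against 2.4 to 5.51 for the other replicate pairs, so the counts in each comparison that uses them are also given without them. The 5 CD8 T cell markers (Cd3d, Cd3e, Cd3g, Cd8a and Cd8b1) summed to 3108 to 3281 CPM in IL-12 80%TCM, 2743 to 2847 in IL-12, 3105 to 3197 in IL-2 80%TCM and 2668 to 2859 in IL-2. With 80%TCM, Cd8a was called higher in both cytokines and Cd3g in IL-2. Between the cytokines Cd8a was called higher with IL-12 (log2 0.33 with 80%TCM and 0.22 without it). Cd8b1 was called lower (log2 -0.40 and -0.36), and Cd3d, Cd3e and Cd3g were not called. Markers of CD4 T cells, B cells, macrophages and monocytes, red cells and NK cells each summed to at most 19.9 CPM in any library, but several moved with the groups. Of 17 such markers 9 were tested. With 80%TCM 3 rose in IL-12 (Cd4, Cd79b and Itgam), and 2 rose (Cd4 and Cd79a) and 1 fell (Lyz2) in IL-2. With IL-12 against IL-2, 6 were lower with 80%TCM (Cd4, Foxp3, Cd79a, Cd79b, Hbb-bs and Klrb1c) and 6 without it (Cd4, Foxp3, Cd79b, Itgam, Hbb-bs and Klrb1c). The CD4 T cell markers summed to 2.82 to 3.01 CPM in IL-12 80%TCM, 1.04 to 1.42 in IL-12, 3.88 to 6.02 in IL-2 80%TCM and 2.58 to 3.02 in IL-2. Those of B cells summed to 8.39 to 9.47 CPM in IL-12 80%TCM, 6.19 to 7.75 in IL-12, 16.9 to 19.9 in IL-2 80%TCM and 16.5 to 19.9 in IL-2. Those of macrophages and monocytes summed to 10.11 to 10.98 CPM in IL-12 80%TCM, 6.36 to 8.05 in IL-12, 10.74 to 17.98 in IL-2 80%TCM and 9.34 to 12.7 in IL-2. Red cell and NK cell markers summed to at most 2.47 CPM in any library. Of 5 platelet markers, 4 (Ppbp, Pf4, Itga2b and Gp9) were lower with 80%TCM in both cytokines and lower with IL-12 than with IL-2, and Gp1bb was at 0 in every library. Their sum was 23.2 to 29.5 CPM in IL-12 80%TCM, 57.0 to 67.5 in IL-12, 41.8 to 54.2 in IL-2 80%TCM and 102 to 124 in IL-2, and the part of these other cell types in the results below was not tested.

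The promoters of 4 members are shown, chosen by their changes in the fit of all 12 libraries. Cdc6 had the largest fall with 80%TCM among the licensing genes, and Mcm5 the lowest p-value of the 40 for 80%TCM in each cytokine. Pole2 had the largest difference of the 80%TCM effect between cytokines, although that difference was not called. Tyms had the largest fall of the 40. Each window runs from 250 bases before to 50 bases after the RefSeq start (build GRCm38.p6), 5′ to 3′ on the strand of the gene. Capitals mark an E2F word, defined as TTTGGCGC, TTTCGCGC, TTTCCCGC or TTTGCCGC on either strand. Cdc6 lies at chr11:98907901-98908200 on the plus strand and held 1 word. The GENCODE M21 annotation starts this gene at 98907801, ahead of the whole window. Mcm5 lies at chr8:75109259-75109558 on the plus strand and held 2 words on opposite strands, which overlap by 4 bases and print as 1 run. GENCODE M21 starts Mcm5 at 75109569, past the end of the window. Pole2 lies at chr12:69228141-69228440 on the minus strand and held 1 word, just after the start. Tyms lies at chr5:30073576-30073875 on the minus strand and held none of these words.
Cdc6: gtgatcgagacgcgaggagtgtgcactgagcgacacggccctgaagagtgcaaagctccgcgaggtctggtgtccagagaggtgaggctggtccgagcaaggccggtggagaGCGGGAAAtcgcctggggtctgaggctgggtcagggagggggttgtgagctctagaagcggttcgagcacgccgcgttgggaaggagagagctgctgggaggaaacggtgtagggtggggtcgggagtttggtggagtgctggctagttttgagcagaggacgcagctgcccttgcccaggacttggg
Mcm5: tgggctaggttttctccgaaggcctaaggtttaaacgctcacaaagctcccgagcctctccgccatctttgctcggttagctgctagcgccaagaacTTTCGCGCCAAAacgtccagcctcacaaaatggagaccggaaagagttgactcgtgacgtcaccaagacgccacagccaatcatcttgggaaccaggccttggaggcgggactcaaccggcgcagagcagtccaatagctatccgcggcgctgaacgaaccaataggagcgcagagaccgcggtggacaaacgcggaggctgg
Pole2: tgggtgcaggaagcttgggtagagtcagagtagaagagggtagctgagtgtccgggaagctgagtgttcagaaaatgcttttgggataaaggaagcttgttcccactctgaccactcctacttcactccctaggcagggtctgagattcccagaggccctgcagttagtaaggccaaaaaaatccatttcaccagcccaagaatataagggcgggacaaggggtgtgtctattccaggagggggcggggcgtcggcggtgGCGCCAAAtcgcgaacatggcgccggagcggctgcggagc
Tyms: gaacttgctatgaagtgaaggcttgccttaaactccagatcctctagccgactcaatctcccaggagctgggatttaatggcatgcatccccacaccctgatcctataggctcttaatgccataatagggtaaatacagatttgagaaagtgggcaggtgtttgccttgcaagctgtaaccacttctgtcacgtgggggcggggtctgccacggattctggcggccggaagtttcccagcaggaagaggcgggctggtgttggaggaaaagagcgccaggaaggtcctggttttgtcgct

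RefSeq gave a window for 33 of the 40 members, and 15 of the 33 (45.5%) held at least 1 E2F word: Orc1, Cdc6, Cdt1, Mcm3, Mcm5, Mcm6, Mcm7, Gins3, Rfc3, Pola1, Pold1, Pold3, Pole2, Lig1 and Uhrf1. Over all 27025 genes with such windows the share was 2.6%, and among 22 mitosis genes with a window it was 4.55%. The CCAAT word (either strand) was in 63.6% of the members' windows, against 41.1% over all genes and 81.8% of the mitosis genes. The word TTTGAA (either strand), the core of the cell cycle homology region that mitosis genes carry, was in 15.2% of the members, 20.2% of all genes and 77.3% of the mitosis genes. None of the 4 deoxynucleotide synthesis genes with a window held an E2F word. The 21 words lay between 185 bases before and 39 bases after the start, and 13 of them within the last 60 bases before the start or after it. These matches are descriptions of letters in a window and not binding sites.

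**Figure D1:**
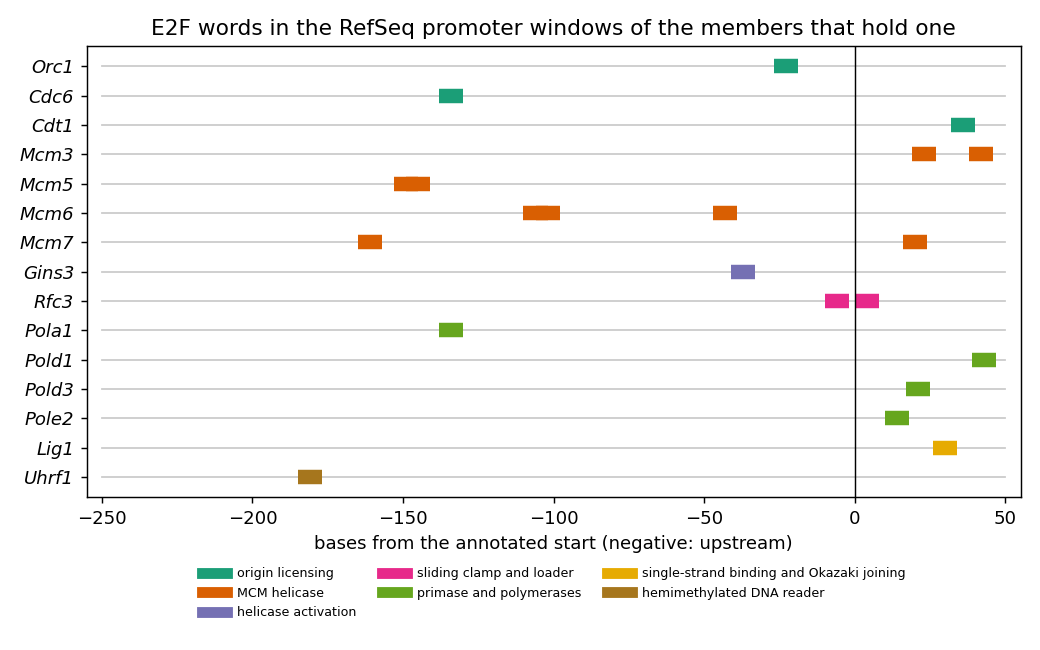
Position of each E2F word (coloured bar, 8 bases wide, colour by role) in the promoter windows of the 15 members that hold one, in bases from the RefSeq start, which is 0. Grey lines show the 300-base window. The words run from -185 in Uhrf1 to 39 in Pold1, and Mcm6 held 3.

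With 80%TCM the whole list moved down in both cytokines. In IL-12, 39 of 40 members fell and none rose, where 14.2% of all genes tested were called lower and 14.8% higher. Their median log2 fold change was -0.46 (0.01 over all genes), a median fold of 1.37, and folds of the called members ran from 1.15 to 2.09. In IL-2, 34 of 40 fell and none rose, where 7.82% of all genes were called lower and 6.73% higher. The median was -0.34 (0.00 over all genes), a median fold of 1.26, and called folds ran from 1.15 to 1.70. The 34 were all among the 39. The 3 libraries with 80%TCM were all below the 3 without it for all 40 members in IL-12, against 25.3% of all genes, and for 37 in IL-2, against 14.3% of all genes. In bulk RNA, fewer cells in S phase and less RNA of these genes per cell cannot be told apart.

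Summed over the 40 genes, the level was 6451, 6130 and 6164 CPM in IL-12 80%TCM, and 9148, 8831 and 8561 CPM in IL-12. It was 5388, 5347 and 4706 CPM in IL-2 80%TCM, and 6837, 6656 and 6379 CPM in IL-2. The 80%TCM libraries were lower in each cytokine with no overlap, and the sums in IL-12 80%TCM lay below those in IL-2 except for IL-12 80%TCM replicate 1, which was above IL-2 replicate 3. As a share of all counts, the 40 genes took 0.591% to 0.615% in IL-12 80%TCM, 0.822% to 0.872% in IL-12, 0.489% to 0.566% in IL-2 80%TCM and 0.660% to 0.705% in IL-2.

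**Figure D2:**
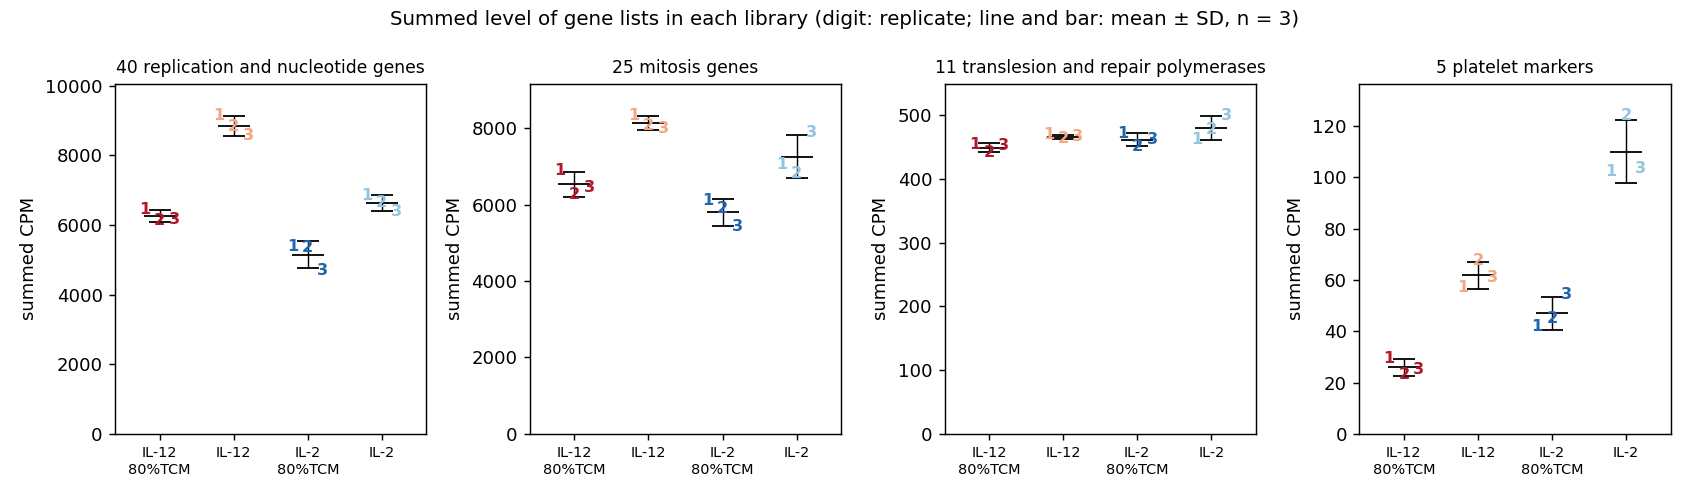
Summed CPM in each library (digits are replicate numbers, lines and bars the mean ± SD, n = 3) of the 40 members, the mitosis genes, the translesion and repair polymerases, and the platelet markers. The members were lower with 80%TCM in both cytokines and highest in IL-12, and replicate 3 was the lowest member sum in IL-2 80%TCM and in IL-2; the platelet markers were also lower with 80%TCM, but lower in IL-12 than in IL-2.

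The calls in IL-2 depended on the libraries that share the estimate of spread. Fitted on the 6 IL-2 libraries alone, the same test called 9 members lower (Orc1, Cdc6, Cdt1, Mcm4, Mcm5, Mcm10, Pole, Lig1 and Uhrf1), where 2.19% of all genes were called lower. Replicate 3 of IL-2 80%TCM and replicate 3 of IL-2 deviated together, with a correlation of 0.68 between their deviations from the group means. Replicates 1 and 2 correlated across numbers (0.45 and 0.41) as well as within them (0.43 and 0.40), so pairing by number was not shown for these. A fit that blocked on the number inside these groups gave 39 members that fell, all but Gins2, where 14% of all genes were called lower. Without replicate 3 of both groups, 36 fell (12.4% of all genes), with a median of -0.30. Without replicate 3 of IL-2 80%TCM alone 30 fell (7.4% of all genes), with a median of -0.27. No member's log2 fold change with 80%TCM was positive in any of these fits.

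**Figure D3:**
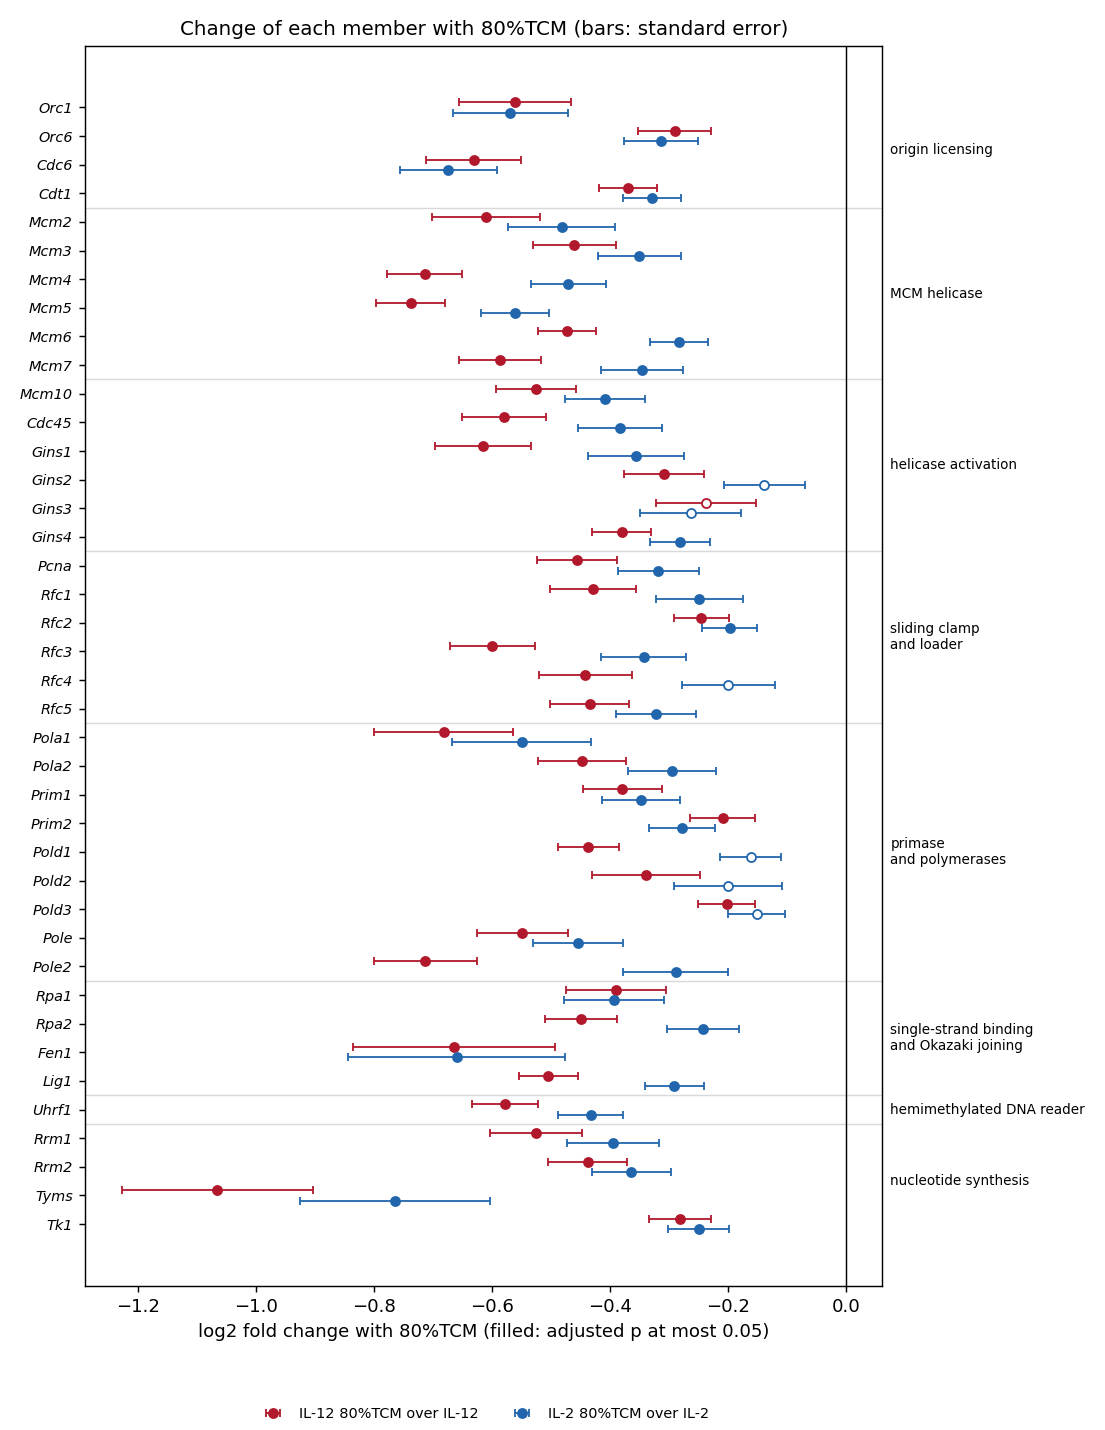
Log2 fold change with 80%TCM of each of the 40 members, grouped by role, in IL-12 (red, IL-12 80%TCM over IL-12) and in IL-2 (blue, IL-2 80%TCM over IL-2); bars are standard errors and filled points passed an adjusted p of 0.05. Every point lies below 0. In this fit of all 12 libraries Tyms is the lowest in both, at -1.07 and -0.76, and Gins3 is open in both.

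All 4 licensing genes fell with 80%TCM in both cytokines. Cdc6 helps the origin recognition complex load the helicase. It measured 68.8, 66.6 and 63.2 CPM in IL-12 80%TCM, 106, 101 and 101 in IL-12, 44.7, 42.4 and 36.4 in IL-2 80%TCM, and 72.3, 64.8 and 59.9 in IL-2. Groups with and without 80%TCM did not overlap, and the IL-12 80%TCM libraries lay within the range of the IL-2 libraries. Cdc6 fell 1.55-fold (log2 -0.63, SE 0.08, adjusted p = 0.00013) in IL-12 and 1.596-fold (log2 -0.67, SE 0.08, adjusted p = 0.00024) in IL-2. Cdt1, the partner of Cdc6 in loading, measured 76.3, 74.9 and 79.3 CPM in IL-12 80%TCM, 98.6, 101 and 98.4 in IL-12, 76.3, 79.2 and 73.1 in IL-2 80%TCM, and 92.8, 97.7 and 96.6 in IL-2. It fell 1.29-fold (log2 -0.37, SE 0.05, adjusted p = 0.00018) in IL-12 and 1.26-fold (log2 -0.33, SE 0.05, adjusted p = 0.00097) in IL-2, and IL-12 against IL-2 gave a difference that was not called (log2 0.05, SE 0.05, adjusted p = 0.4 without 80%TCM). Orc1, a subunit of the origin recognition complex, fell 1.48-fold in IL-12 and 1.48-fold in IL-2. Orc6, another subunit, fell 1.22-fold and 1.24-fold. Orc1, Orc6 and Cdc6 were higher with IL-12 than with IL-2, both with 80%TCM (1.21-fold, 1.28-fold and 1.61-fold) and without it (1.199-fold, 1.26-fold and 1.56-fold). Of the exon bases of Orc1, 10.8% lie under a transcript on the opposite strand, which held 285 counts against 4701 for Orc1. Of those of Orc6, 6.93% lie under Vps35 on the opposite strand, which held 45340 counts against 19497 for Orc6.

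All 6 subunits of the Mcm2 to Mcm7 helicase, the motor that unwinds DNA at the fork, fell with 80%TCM in both cytokines. Mcm5, with the overlapping pair of E2F words in its promoter, measured 343, 322 and 325 CPM in IL-12 80%TCM, 566, 543 and 542 in IL-12, 298, 294 and 263 in IL-2 80%TCM, and 441, 421 and 399.8 in IL-2. The 4 groups did not overlap. Mcm5 fell 1.67-fold (log2 -0.74, SE 0.06, adjusted p = 4.9e-06) in IL-12 and 1.48-fold (log2 -0.56, SE 0.06, adjusted p = 9.2e-05) in IL-2. Mcm6, the subunit with the highest CPM, measured 377, 371 and 374 CPM in IL-12 80%TCM, 546, 510.2 and 500.3 in IL-12, 357, 365 and 335 in IL-2 80%TCM, and 435, 429 and 421 in IL-2. Its IL-12 libraries stood above all others and its IL-2 80%TCM libraries were the lowest. Mcm6 fell 1.39-fold (log2 -0.47, SE 0.05, adjusted p = 3.3e-05) in IL-12 and 1.22-fold (log2 -0.28, SE 0.05, adjusted p = 0.0025) in IL-2. Mcm2 measured 208, 189 and 201 CPM in IL-12 80%TCM, 323, 298 and 293 in IL-12, 156, 163 and 136 in IL-2 80%TCM, and 229.7, 227 and 179.6 in IL-2. In IL-2 its replicate 3 was well below the other libraries but above those of IL-2 80%TCM. Mcm2 fell 1.53-fold (log2 -0.61, SE 0.09, adjusted p = 0.0004) in IL-12 and 1.397-fold (log2 -0.48, SE 0.09, adjusted p = 0.0042) in IL-2. Mcm3, Mcm4 and Mcm7 fell 1.38-fold, 1.64-fold and 1.502-fold in IL-12, and 1.27-fold, 1.39-fold and 1.27-fold in IL-2.

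With IL-12 against IL-2 and no TCM, all 6 helicase genes were higher, between 1.21-fold (Mcm6) and 1.44-fold (Mcm2). With 80%TCM in both arms, Mcm2, Mcm3 and Mcm5 were higher by 1.31-fold, 1.24-fold and 1.16-fold. Mcm4, Mcm6 and Mcm7 were not called there, at log2 0.05, 0.09 and 0.09. The subunits join in equal numbers in the hexamer. Per kilobase of merged exon, Mcm3 to Mcm7 lay between 62.2 and 89.5 CPM in IL-12 80%TCM, between 102 and 138 in IL-12, between 59.9 and 75.5 in IL-2 80%TCM and between 83.1 and 105 in IL-2. Mcm2 lay below these, at 28.7, 43.8, 21.8 and 30.5 CPM per kilobase in the same order of groups, over 6956 bases of merged exon, the longest of the 6. Merged exon joins the exons of all annotated transcripts of a gene. A merged length beyond that of the transcripts made would lower the value per kilobase, and this was not tested.

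Of the 6 genes that turn the loaded ring into an active helicase, 5 fell with 80%TCM in IL-12 and 4 in IL-2. Mcm10, needed for origin firing, measured 72.1, 67.4 and 69.4 CPM in IL-12 80%TCM, 105, 98.4 and 97.6 in IL-12, 71.1, 67.95 and 59.6 in IL-2 80%TCM, and 85.5, 85.2 and 93.02 in IL-2. Groups with and without 80%TCM did not overlap, and the IL-12 80%TCM and IL-2 80%TCM ranges did. Mcm10 fell 1.44-fold (log2 -0.53, SE 0.07, adjusted p = 0.00014) in IL-12 and 1.33-fold (log2 -0.41, SE 0.07, adjusted p = 0.0018) in IL-2. Gins1, a subunit of the GINS complex, measured 21.1, 20.9 and 19.7 CPM in IL-12 80%TCM, 31.6, 33.2 and 29.6 in IL-12, 22.6, 21.03 and 18.4 in IL-2 80%TCM, and 25.8, 27.9 and 25.6 in IL-2. The 2 groups with 80%TCM overlapped, and both lay below the groups without it. Gins1 fell 1.53-fold (log2 -0.62, SE 0.08, adjusted p = 0.00017) in IL-12 and 1.28-fold (log2 -0.36, SE 0.08, adjusted p = 0.012) in IL-2. Gins2, another subunit, measured 32.8, 31.7 and 32.3 CPM in IL-12 80%TCM, 40, 39.9 and 40.01 in IL-12, 24.4, 28.04 and 28.7 in IL-2 80%TCM, and 28.5, 31.7 and 29.1 in IL-2. In IL-12 it fell 1.24-fold (log2 -0.31, SE 0.07, adjusted p = 0.0045), but in IL-2 the groups overlapped and it was not called (log2 -0.14, SE 0.07, adjusted p = 0.2). It was higher with IL-12 than with IL-2, 1.34-fold without 80%TCM and 1.19-fold with it. Of its exon bases, 67.3% lie under Gse1 on the opposite strand, so reads of the 2 genes could be mixed if counting ignored strand. Gins3 was the only member called in neither cytokine, at log2 -0.24 in IL-12 (adjusted p = 0.052) and -0.26 in IL-2 (adjusted p = 0.055), although its groups did not overlap in either. Cdc45 fell 1.49-fold and 1.304-fold, and Gins4 fell 1.302-fold and 1.22-fold, in IL-12 and in IL-2. Of the exon bases of Cdc45, 5.96% lie under Ufd1 on the opposite strand, which held 22618 counts against 25021 for Cdc45.

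The sliding clamp gene stood apart between the cytokines. Pcna encodes the ring that holds polymerases on DNA. It measured 756, 764 and 743 CPM in IL-12 80%TCM, 1056, 1044 and 1003 in IL-12, 377, 378 and 325 in IL-2 80%TCM, and 480.4, 455 and 410.2 in IL-2. The 4 groups did not overlap, and even the lowest IL-12 80%TCM library was above the highest IL-2 library. Pcna was higher with IL-12 than with IL-2 by 2.31-fold (log2 1.21, SE 0.07, adjusted p = 1.9e-08) without 80%TCM and by 2.096-fold (log2 1.07, SE 0.07, adjusted p = 4.8e-08) with it, and it was the only member past a 2-fold difference in either comparison. With 80%TCM it fell 1.37-fold (log2 -0.46, SE 0.07, adjusted p = 0.00041) in IL-12 and 1.25-fold (log2 -0.32, SE 0.07, adjusted p = 0.0082) in IL-2. Per kilobase it was the highest member in all groups, at 314 CPM in IL-12 80%TCM, 431 in IL-12, 149.9 in IL-2 80%TCM and 187 in IL-2. The pseudogene Pcna-ps2 held 6513 counts over the 12 libraries, against 213311 for Pcna, and reads could be split between them.

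The 5 subunits of replication factor C, which opens the clamp and places it on DNA, all fell with 80%TCM in IL-12, and all but Rfc4 fell in IL-2. Rfc3 measured 37.4, 35.4 and 32.1 CPM in IL-12 80%TCM, 56.3, 51.6 and 50.98 in IL-12, 31.4, 36.3 and 32.8 in IL-2 80%TCM, and 41.04, 43.1 and 43.6 in IL-2. Its groups with and without 80%TCM did not overlap, and its IL-12 80%TCM and IL-2 80%TCM libraries did. Rfc3 fell 1.52-fold (log2 -0.60, SE 0.07, adjusted p = 9.2e-05) in IL-12 and 1.27-fold (log2 -0.34, SE 0.07, adjusted p = 0.0078) in IL-2. Rfc1, Rfc2 and Rfc5 fell 1.35-fold, 1.19-fold and 1.35-fold in IL-12, and 1.19-fold, 1.15-fold and 1.25-fold in IL-2. Rfc4 fell 1.36-fold in IL-12 and was at log2 -0.20 in IL-2 (adjusted p = 0.11). With IL-12 against IL-2, Rfc1 to Rfc4 were higher without TCM, by 1.31-fold, 1.14-fold, 1.24-fold and 1.16-fold, while only Rfc1 and Rfc2 passed the test with 80%TCM, by 1.15-fold and 1.104-fold. Between 10.7% and 15.1% of the exon bases of Rfc2, Rfc4 and Rfc5 lie under genes on the opposite strand. The gene over Rfc4, Eif4a2, held 86254 counts against 13825 for Rfc4.

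All 9 primase and polymerase genes fell with 80%TCM in IL-12, and 6 of 9 in IL-2, where the 3 delta subunits Pold1, Pold2 and Pold3 were not called. Pola1, the catalytic subunit of polymerase alpha, measured 91.1, 81.7 and 88.1 CPM in IL-12 80%TCM, 148, 135 and 135 in IL-12, 91.9, 87.4 and 60.8 in IL-2 80%TCM, and 123, 118 and 109.6 in IL-2. Replicate 3 of IL-2 80%TCM was far below the other 2 of its group, and without replicate 3 of both IL-2 groups the log2 fold change in IL-2 was -0.43. Pola1 fell 1.605-fold (log2 -0.68, SE 0.12, adjusted p = 0.001) in IL-12 and 1.46-fold (log2 -0.55, SE 0.12, adjusted p = 0.0082) in IL-2. Pole, the catalytic subunit of polymerase epsilon, measured 129, 108 and 119 CPM in IL-12 80%TCM, 173, 169.6 and 178 in IL-12, 137, 130.1 and 111 in IL-2 80%TCM, and 174, 175 and 169 in IL-2, with nearly equal levels in IL-12 and IL-2. It fell 1.46-fold (log2 -0.55, SE 0.08, adjusted p = 0.00026) in IL-12 and 1.37-fold (log2 -0.45, SE 0.08, adjusted p = 0.0021) in IL-2. Pole2, an accessory subunit of polymerase epsilon, measured 23.7, 21.8 and 24.6 CPM in IL-12 80%TCM, 39.9, 38.6 and 36.1 in IL-12, 19.9, 21.6 and 17.1 in IL-2 80%TCM, and 25.2, 24.04 and 22.3 in IL-2. The IL-12 libraries stood well above all others. Pole2 fell 1.64-fold (log2 -0.71, SE 0.09, adjusted p = 0.0001) in IL-12 and 1.22-fold (log2 -0.29, SE 0.09, adjusted p = 0.046) in IL-2, and was higher with IL-12 than with IL-2 by 1.603-fold without 80%TCM and 1.19-fold with it. Pola2, Prim1, Pold2 and Pold3 fell 1.36-fold, 1.301-fold, 1.26-fold and 1.15-fold in IL-12. In IL-2, Pola2 and Prim1 fell 1.23-fold and 1.27-fold.

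Between the cytokines the polymerase genes split. Prim2, the large primase subunit, measured 75.3, 72.01 and 72.1 CPM in IL-12 80%TCM, 88.02, 84.7 and 80.8 in IL-12, 50.5, 47.96 and 50.3 in IL-2 80%TCM, and 60.4, 56.6 and 63.4 in IL-2. Every IL-12 80%TCM library was above every IL-2 library. Prim2 was higher with IL-12 by 1.41-fold (log2 0.49, SE 0.06, adjusted p = 1.3e-05) without 80%TCM and 1.47-fold (log2 0.56, SE 0.06, adjusted p = 4.3e-06) with it. It fell 1.16-fold with 80%TCM in IL-12 and 1.21-fold in IL-2. Pold1, the catalytic subunit of polymerase delta, measured 95.1, 89.2 and 95.2 CPM in IL-12 80%TCM, 128, 129.6 and 120.5 in IL-12, 109.6, 110.3 and 111 in IL-2 80%TCM, and 125, 128 and 118 in IL-2. IL-12 and IL-2 overlapped, whereas every IL-12 80%TCM library was below every IL-2 80%TCM library. In the main fit, of all 12 libraries without a replicate block, Pold1 was the only member called lower with IL-12 in the presence of 80%TCM. It was lower by 1.19-fold (log2 -0.24, SE 0.05, adjusted p = 0.0022). With 80%TCM it fell 1.35-fold (log2 -0.44, SE 0.05, adjusted p = 8.1e-05) in IL-12 and was at log2 -0.16 in IL-2 (adjusted p = 0.051). Pola1, Pola2, Prim1 and Pole were called in neither comparison of the cytokines in the main fit, with log2 differences without TCM between -0.05 (Prim1) and 0.25 (Pola1). With a replicate block inside the IL-2 groups, Pola1 was called higher with IL-12 without TCM, and Pola2 was called lower with 80%TCM.

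The genes for single-strand binding and Okazaki joining all fell with 80%TCM in both cytokines. Rpa1, the large subunit of replication protein A, which coats single-stranded DNA, measured 341, 316 and 319 CPM in IL-12 80%TCM, 439, 417 and 422 in IL-12, 245, 248 and 194 in IL-2 80%TCM, and 318, 310.2 and 275 in IL-2. Replicate 3 was the lowest library in IL-2 80%TCM and in IL-2. Rpa1 fell 1.31-fold (log2 -0.39, SE 0.08, adjusted p = 0.0043) in IL-12 and 1.31-fold (log2 -0.39, SE 0.08, adjusted p = 0.0084) in IL-2, and was 1.42-fold higher with IL-12 than with IL-2 without TCM and 1.42-fold higher with it. Rpa2, the middle subunit, fell 1.37-fold and 1.18-fold, and Lig1, the ligase that seals Okazaki fragments, fell 1.42-fold and 1.22-fold, in IL-12 and in IL-2. Fen1, the flap nuclease of Okazaki processing, was counted at a low level, 3.39, 3.61 and 3.75 CPM in IL-12 80%TCM, 5.65, 5.63 and 5.79 in IL-12, 3.05, 1.92 and 1.75 in IL-2 80%TCM, and 3.7, 3.14 and 3.69 in IL-2. Its IL-12 libraries were the highest, and the IL-12 80%TCM and IL-2 libraries overlapped. Fen1 fell 1.59-fold (log2 -0.66, SE 0.17, adjusted p = 0.012) in IL-12 and 1.58-fold (log2 -0.66, SE 0.18, adjusted p = 0.03) in IL-2, on 1221 counts over all 12 libraries. Of its exon bases, 78.8% lie under an antisense transcript and 5.37% under Tmem258 on the opposite strand, so its counts are uncertain. Uhrf1, which reads hemimethylated DNA behind the fork and recruits maintenance methylation, measured 392, 349.5 and 363 CPM in IL-12 80%TCM, 567, 563 and 519 in IL-12, 319, 328 and 306 in IL-2 80%TCM, and 441, 427 and 419.9 in IL-2. The 4 groups did not overlap. Uhrf1 fell 1.49-fold (log2 -0.58, SE 0.06, adjusted p = 1.9e-05) in IL-12 and 1.35-fold (log2 -0.43, SE 0.06, adjusted p = 0.00035) in IL-2, and was higher with IL-12 by 1.28-fold without 80%TCM and 1.16-fold with it.

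All 4 deoxynucleotide synthesis genes fell with 80%TCM in both cytokines. Tyms encodes thymidylate synthase, which makes the thymidine nucleotide from its uracil form. It measured 55.1, 54.7 and 51.4 CPM in IL-12 80%TCM, 117, 113 and 108 in IL-12, 63.1, 60.9 and 35.01 in IL-2 80%TCM, and 99.04, 91.4 and 79.5 in IL-2. Groups with and without 80%TCM were well apart, but replicate 3 of IL-2 80%TCM was far below the other 2 libraries of its group. Tyms fell 2.09-fold (log2 -1.07, SE 0.16, adjusted p = 0.00046) in IL-12 and 1.699-fold (log2 -0.76, SE 0.16, adjusted p = 0.0076) in IL-2, the largest falls of the 40 members in both. Its first rank in IL-2 rests on the fit of all 12 libraries. Without replicate 3 of the IL-2 groups the log2 fold change of Tyms in IL-2 was -0.62, and the members were not ranked there. The pseudogene Tyms-ps held 128 counts. Rrm2, the regulated small subunit of ribonucleotide reductase, measured 489, 473 and 461 CPM in IL-12 80%TCM, 655, 653 and 619 in IL-12, 320, 329 and 271 in IL-2 80%TCM, and 413, 385 and 385 in IL-2. Every IL-12 80%TCM library was above every IL-2 library. Rrm2 fell 1.35-fold (log2 -0.44, SE 0.07, adjusted p = 0.00049) in IL-12 and 1.29-fold (log2 -0.36, SE 0.07, adjusted p = 0.0036) in IL-2, and was higher with IL-12 than with IL-2 by 1.63-fold (log2 0.70, SE 0.07, adjusted p = 2.8e-06) without 80%TCM and 1.55-fold (log2 0.63, SE 0.07, adjusted p = 7.5e-06) with it. Rrm1, the large subunit, fell 1.44-fold and 1.32-fold, and Tk1, the thymidine kinase of the salvage route, fell 1.22-fold and 1.19-fold, in IL-12 and in IL-2.

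**Figure D4:**
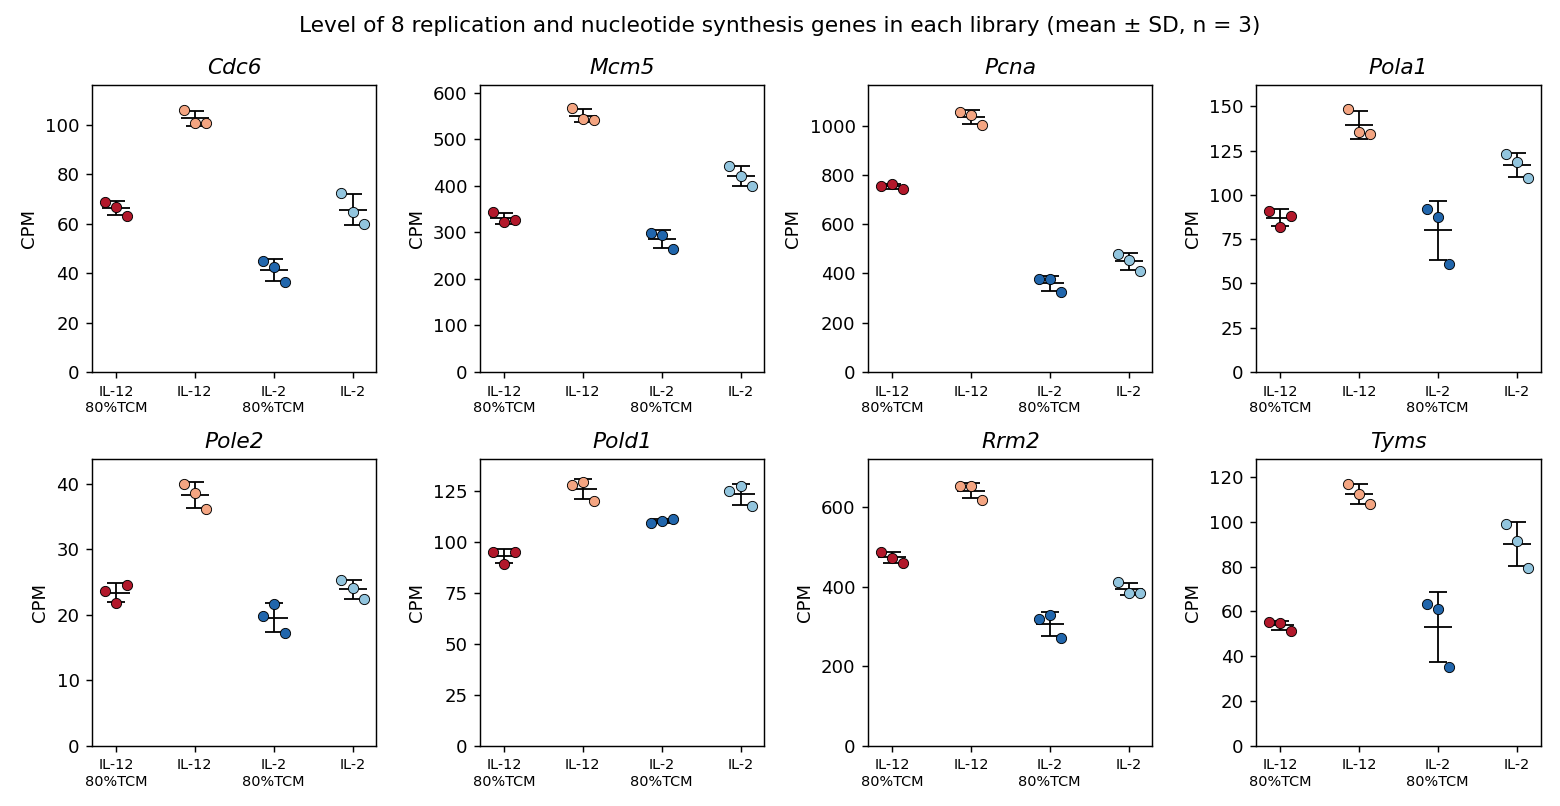
CPM of 8 members in each of the 12 libraries (points), with the mean ± SD of each group (n = 3). Pcna and Rrm2 were higher in every IL-12 80%TCM library than in any IL-2 library. The Tyms range in IL-12 80%TCM (51.4 to 55.1) lay within that in IL-2 80%TCM (35.0 to 63.1), whose low end is replicate 3. Without that library Tyms was called lower in IL-12 80%TCM than in IL-2 80%TCM.

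Without TCM, the cells in IL-12 had higher levels of most members than those in IL-2. In that comparison 31 of 40 were called higher and none lower, where 22.1% of all genes were called higher and 23% lower, with a median log2 fold change of 0.31 (-0.01 over all genes). The 3 IL-12 libraries were above the 3 IL-2 libraries for 35 members, against 28.4% of all genes. The 9 not called were Cdt1, Gins3, Rfc5, Pola1, Pola2, Prim1, Pold1, Pole and Tyms, with log2 fold changes of -0.05 to 0.32. With 80%TCM in both arms, 19 members were higher with IL-12 and 1, Pold1, was lower, where 19.5% of all genes were called higher and 19.4% lower. The median there was 0.15 (-0.01 over all genes). Leaving out IL-2 80%TCM replicate 3, it was 0.09, and 12 members were higher and 5 lower (Pola2, Prim1, Pold1, Pole and Tyms), where 18.8% of all genes were called higher and 19.9% lower. With replicate 3 of both IL-2 groups left out, 15 were higher and the same 5 lower, where 23.5% of all genes were called higher and 24.5% lower; without TCM 34 were then higher and none lower, where 26.3% of all genes were called higher and 26% lower. The IL-12 80%TCM libraries were all above those of IL-2 80%TCM for 21 members (25.1% of all genes) and all below for 1, Pold1 (24.9%). The count rests partly on the scaling: with upper-quartile scaling 10 members were higher and 3 lower (Pola2, Pold1 and Lig1), with a median of 0.07, where 14.7% of all genes were called higher and 25% lower, and without TCM 21 were higher and none lower, where 16.3% of all genes were called higher and 28.5% lower. Without IL-12 80%TCM replicate 1, 10 members were higher and 1 lower, where 14.7% of all genes were called higher and 15.4% lower.

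**Figure D5:**
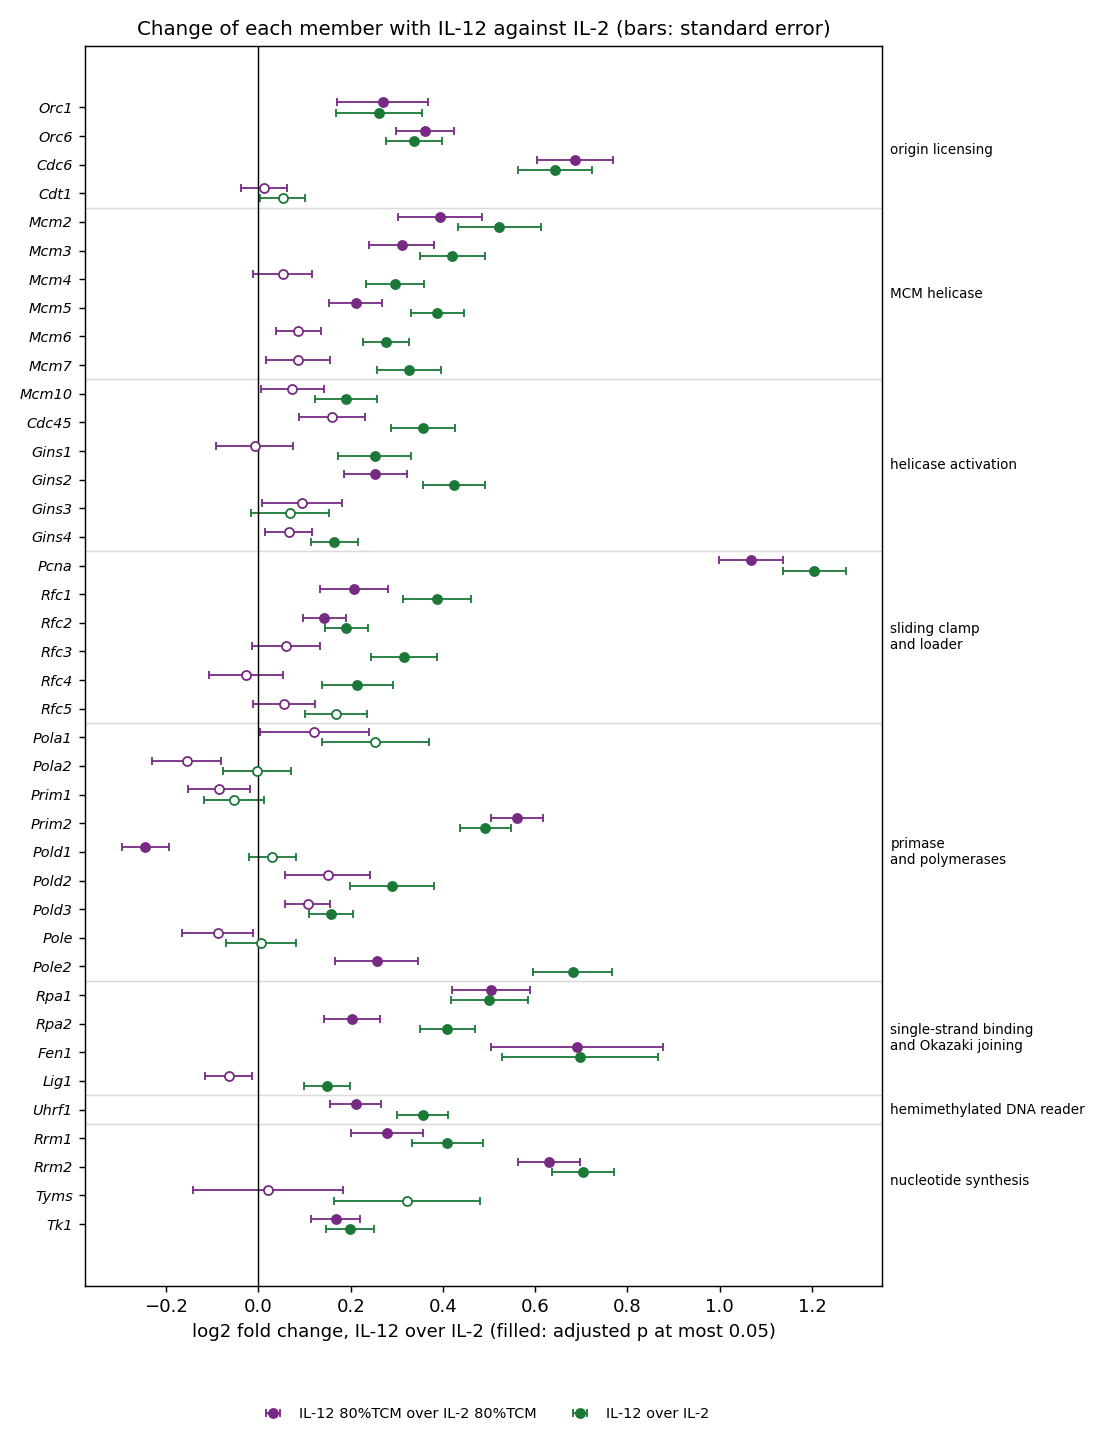
Log2 fold change of IL-12 over IL-2 for each of the 40 members, grouped by role, with 80%TCM in both arms (purple) and without TCM (green); bars are standard errors and filled points passed an adjusted p of 0.05. Pcna lies farthest right, at 1.07 and 1.21, and Pold1 with 80%TCM is the only filled point left of 0, at -0.24.

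The change with 80%TCM in IL-12 minus the change in IL-2 was negative for 34 of the 40 members, with a median of -0.13 (0.00 over all genes). No member passed the adjusted test with edgeR, where 0.39% of all genes were called lower, and 11 members had an unadjusted p under 0.05, against 14.8% of all genes. The lowest adjusted p was 0.084, for Pold1, whose difference was -0.28 (SE 0.07), and the largest difference was that of Pole2, at -0.42 (SE 0.12, adjusted p = 0.12). DESeq2 called 1 member, Pold1, where 1.2% of all genes were called lower. This result turned on replicate 3 of the IL-2 groups. When the number was blocked inside those groups, 6 members were called, all negative (Lig1, Mcm4, Mcm7, Pold1, Pole2 and Rfc4), where 4.14% of all genes were called lower. Without replicate 3 of both groups 19 were called, all negative, where 6.24% of all genes were called lower, with Tyms at -0.46 and Pole2 at -0.48. Without replicate 3 of IL-2 80%TCM alone 9 were called, where 3.06% of all genes were called lower. Replicate 3 was the lowest library of its group for 33 members in IL-2 80%TCM and for 24 in IL-2.

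The 4 group means of most members followed 1 order. For 25 members (62.5%) the level ran from IL-12 down through IL-2 and IL-12 80%TCM to IL-2 80%TCM, an order that 6.27% of all tested genes had. For 8 members (20%) the order was IL-12, IL-12 80%TCM, IL-2 and IL-2 80%TCM, which 11.1% of all genes had: Orc6, Cdc6, Gins2, Pcna, Prim2, Rpa1, Fen1 and Rrm2. For 5 members the order was IL-12, IL-2, IL-2 80%TCM and IL-12 80%TCM (12.5%, against 3.79%), and for the other 2 it was IL-2, IL-12, IL-2 80%TCM and IL-12 80%TCM (5%, against 4.35%). IL-12 was the highest group for 38 members. These orders rest on means of all 12 libraries, and neighbouring places were not tested. The IL-12 80%TCM and IL-2 80%TCM libraries overlapped for 18 members, and those of IL-12 and IL-2 for 5. Replicate 3 of IL-2 80%TCM, the lowest of its group for 33 members, is included in the means.

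The median fall with 80%TCM was compared between members with and without an E2F word in the window. In IL-12 it was a log2 fold change of -0.56 for the 15 with a word and -0.45 for the 18 without one. In IL-2 the medians were -0.34 and -0.34. Tyms, without a word, fell 2.09-fold in IL-12. Cdc6, Mcm5 and Pole2, with words, fell 1.55-fold, 1.67-fold and 1.64-fold there. These 4 were chosen above for their changes with 80%TCM, so their falls cannot bear on the words.

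Neighbouring gene lists moved in part with the members. Their counts stand beside the shares given above for all genes with 80%TCM, 14.2% lower and 14.8% higher in IL-12, and 7.82% lower and 6.73% higher in IL-2, and a list near these shares is at the background. Of 23 other fork and chromatin assembly genes, 20 fell with 80%TCM in IL-12 and 17 in IL-2. Among them Timeless, which steadies the fork, fell in both cytokines (log2 -0.64 in IL-12 and -0.42 in IL-2), as did Clspn, a checkpoint adaptor (log2 -0.50 and -0.53). Pole3, a small subunit of polymerase epsilon, had log2 fold changes of -0.69 in IL-12 and -0.34 in IL-2, and its difference between the cytokines passed the test (-0.34, adjusted p = 0.029). Pold4, the smallest subunit of polymerase delta, was the exception in this list and rose in IL-12 (log2 0.80, adjusted p = 0.0024). Of 13 other licensing and firing genes, 8 fell in IL-12 and 4 in IL-2, including Cdc7, the kinase that fires origins (-0.49 and -0.58). Of 25 mitosis genes, 21 fell in IL-12 and 18 in IL-2, with median log2 fold changes of -0.33 and -0.29.

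Among nucleotide supply genes outside the 40, the difference between the cytokines was called for 1 gene of 4 lists. Of 12 de novo purine synthesis genes, 9 fell with 80%TCM in IL-12 and none in IL-2, where Impdh1, which commits IMP to guanine nucleotides, rose (log2 0.42, adjusted p = 0.0051). The difference between the cytokines was negative for all 12 and passed the test for 1, Pfas (-0.47, adjusted p = 0.037). Of 5 de novo pyrimidine genes, 4 fell in IL-12, and 1 of these, Umps, also fell in IL-2. Of 13 other deoxynucleotide supply genes, 6 fell and 2, Tk2 and Samhd1, rose in IL-12, and 1, Dut, fell in IL-2. Of 5 folate cycle genes, 2 (Shmt2 and Mthfd1) fell in IL-12 and none in IL-2. For the 13 other deoxynucleotide supply genes, the fall count in IL-2 and the rise count in IL-12 were near the shares over all genes.

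Among 13 E2F and pocket protein genes, 7 fell and 1 rose in IL-12, and 2 fell in IL-2. E2f7 and E2f8, repressor E2Fs, fell in both cytokines. E2f2 fell in IL-12 (log2 -0.37, adjusted p = 0.00049) and was not called in IL-2, and E2f1 was not called in either (log2 -0.12 and -0.12). Rbl2, a pocket protein of resting cells, rose in IL-12 (log2 0.39). Of 13 G1 to S cyclins and kinases, 8 fell and 1 rose in IL-12, and 5 fell in IL-2. Ccne2, an E-type cyclin, fell in both (log2 -0.72 and -0.62), and Ccnd2, a D-type cyclin, rose in IL-12 (log2 0.79). Of 11 translesion and repair polymerases only Polq fell, in both cytokines, and the list's median log2 fold changes were -0.01 and -0.03, against -0.46 and -0.34 for the 40 members.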

How the data were processed

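The authors deposited 1 table of gene counts for 12 libraries and a table of signal values that equal the counts on library sizes scaled by TMM. These values served only as a check, and differed from the CPM used here by at most a relative 0.025. Per the submitters' processing notes, reads were aligned with STAR 2.7.7a, and edgeR was named. The notes name build GRCh38, while the identifiers are mouse ones, the extraction text in the labels concerns drug-treated liver that no sample label names, and whether counting used strand is not stated in the material used.

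Counts were scaled by TMM, filtered with filterByExpr (minimum count 10, minimum total 15) and fitted in edgeR 4.0.16 (R 4.3.3, quasi-likelihood F test) to all 12 libraries, with a mean for each group. P-values were adjusted by Benjamini-Hochberg over 15897 genes in each of 5 contrasts, and the adjusted p and standard errors in the text come from this test unless DESeq2 1.42.0 is named. The scripts were tested on simulated data. Replicate numbers were checked for pairing: same-numbered IL-2 80%TCM and IL-2 libraries had residual correlations of 0.43, 0.40 and 0.68, so the block was used within those groups. However, replicate 1 of IL-2 correlated as well with replicate 2 of IL-2 80%TCM (0.45), and replicate 2 of IL-2 with replicate 1 of IL-2 80%TCM (0.41). Only replicate 3 stood apart from the other numbers. Other groups did not pair. Exon lengths and overlaps came from GENCODE M21 (GRCm38), whose build the files do not name.

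Values in every library are printed, per role group, for the member with the highest mean CPM, the member with the largest change in each contrast, and any called against its group; from other lists, up to 3 genes with the smallest p per contrast, while list genes that moved against their list, and E2f1, were chosen after their values were seen. Members and lists were chosen with earlier results of these data known. Alternatives covered scaling, filters, DESeq2, the libraries fitted, the block and leaving out each library.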

Additional observations from a re-analysis of the deposited data

How the results depend on the processing

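Counts of members called, unless stated otherwise. They describe how the calls moved between fits. Where no share over all genes is given for a fit, its count does not set the members against other genes. No called member changed sign in any alternative tried. With 80%TCM in IL-12 the count of 39 was 38 to 40 when leaving out single libraries and 18 when a log2 change of at least 0.5 was also required. With 80%TCM in IL-2 the count of 34 was 27 to 36 when leaving out single libraries, 9 with only the groups compared, and 6 with a change of at least 0.5. For IL-12 against IL-2 the count of 31 was 25 to 34 and 7, and with 80%TCM in both arms the count of 20 (19 higher, 1 lower) was 11 to 19 and 6, 13 (10 higher, 3 lower) with upper-quartile scaling, and 17 (12 higher, 5 lower) without IL-2 80%TCM replicate 3. The median there (0.15) was 0.07 with that scaling and 0.09 without that library. In IL-12 against IL-2 the median of all genes was -0.09 with upper-quartile scaling and -0.01 with TMM. The difference of the 80%TCM effect gave 0 to 9 when leaving out single libraries, 1 with no filter on low counts, 1 with DESeq2, 6 with a replicate block inside the IL-2 groups, and 19 without their replicate 3.

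The members' median for IL-12 against IL-2 (0.31) was 0.23 with upper-quartile scaling, 0.33 with no filter, 0.27 at a mean of at least 5 CPM, 0.27 without both IL-2 replicates 3, and 0.27 to 0.34 when leaving out single libraries. The median with 80%TCM in IL-12 was -0.50 to -0.46, and that of the difference -0.21 to -0.10, when leaving out single libraries.

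Counts over all genes moved more. With 80%TCM in IL-12 (4617) they were 7133 with only the groups compared, 7332 without both IL-2 replicates 3, 1924 with a change of at least 0.5, and 2931 to 5697 when leaving out single libraries. With 80%TCM in IL-2 (2313) they were 587, 3936, 992 and 1292 to 2938 in the same order, and 4442 with the block inside the IL-2 groups. For IL-12 against IL-2 (7171) and with 80%TCM (6192) a change of at least 0.5 left 3719 and 3297. For the difference (251) they were 779 with no filter, 550 with DESeq2, 1668 with the block, 2105 without both IL-2 replicates 3, and 105 to 1164 when leaving out single libraries. The causes were not tested. A replicate block over all 12 libraries gave 39 members with 80%TCM in IL-12, 35 in IL-2, 33 for IL-12 against IL-2 and 20 for that comparison with 80%TCM. The shares over all genes in that fit are not given here. Genes with few counts, of which Fen1 is the one member, carry the most counting error.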
